A study of Homo sapiens with 28 samples.

Results

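Wild type H9 cultures labelled CT0.4 were compared with wild type H9 cultures labelled IWP2, both at day 4 of neural differentiation. The 4 libraries were chosen by their labels: 2 of CT0.4 and 2 of IWP2, of 28 in the series. H9 is an established human embryonic stem cell line, and the series asks what SOX1, a transcription factor of early neural tissue, does in progenitors made from it. The other libraries used below are wild type (WT) day 4 cultures labelled CT1.0, WT day 8 cultures labelled CT0.4 and IWP2, SOX1-/- (KO) day 4 cultures with those labels from lines 26 and 48, and undifferentiated WT cells (ES, day 0), with 2 libraries in each group. IWP2 is a known inhibitor of PORCN and so of WNT secretion. The labels do not explain CT or say in what unit its number is. Both WT groups carry intact SOX1, and every library is from H9, so the results describe 1 cell line. Nothing in the labels says that replicates 1 and 2 came from separate cultures, so the spread between them may be technical. Each p-value and SE rests on a spread estimated within the groups of all 28 libraries, KO lines included. It does not rest on the 4 libraries alone.

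Values are TPM of poly(A)-selected RNA, a transcript abundance corrected for gene length and for the total of the library. A gene was tested if it reached 1 TPM in at least 2 of the 4 libraries, which 19323 of 58219 genes did, among them 216 of the 327 genes in the lists used below. A gene that passed only through the group in which it is high had to differ, so counts over tested list members describe them and support nothing. Differences are log2 fold changes of TPM + 1, CT0.4 over IWP2 unless another pair is named, and this scale understates the change of low genes. A gene was called at an adjusted p under 0.05 from limma. "Rose" and "fell" are used only of genes called on the TPM as deposited and again, in the same direction, after median-ratio scaling of the libraries. In bulk RNA, a change in the number of cells of a type and a change in RNA per cell cannot be told apart.

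WNT proteins are secreted ligands that receive a lipid from PORCN, travel to the cell surface with WLS and bind Frizzled receptors together with LRP5 or LRP6. The canonical branch stabilises beta-catenin, which joins LEF/TCF factors on DNA and switches on, among others, the feedback inhibitor AXIN2. In the vertebrate neural plate WNT activity is low at the anterior end, where the forebrain and eye field form under SIX3, RAX and LHX2, and higher further back, where the midbrain forms. SIX3 is known in the mouse as a repressor of Wnt1.

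The promoter of SP5, a zinc-finger factor that is a textbook target of beta-catenin with LEF/TCF, is shown because SP5 had the second highest log2 fold change among the genes named by rule and because the letters that LEF/TCF factors are known to prefer stand in it 3 times. The search used CTTTGAT and CTTTGAA and their reverse complements, ATCAAAG and TTCAAAG, in the 250 bases before the start of transcription. No other motif was searched. The stretch below lies at chr2:170715171-170715277 on the plus strand of GRCh38.p14, from 166 to 60 bases before the start, and comes from RefSeq; capitals mark the matches.
SP5: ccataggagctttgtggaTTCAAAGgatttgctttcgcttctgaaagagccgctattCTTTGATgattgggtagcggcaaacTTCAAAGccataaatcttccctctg

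Among all 35116 RefSeq promoter windows of this length, 5.94% held at least 1 match, and 7 windows, 0.0199%, held 3 or more. Of the 14 genes in the list of WNT feedback targets and TCF factors, 8 had a window, and 1 of these 8, SP5, held a match. This count is by gene, and RNF43, TCF7 and TNFRSF19 had more than 1 window, while the 5.94% is by window. SP5 was shown with its 3 matches known, so the 0.0199% is no test of it. Of its members that rose, SP5, APCDD1, LEF1 and TNFRSF19 had a window. A match describes letters and does not show a bound site.

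The WNT pathway genes among the 7 markers were higher in CT0.4, and SIX3 and RAX were lower. WNT1, a ligand of the midbrain and roof plate, had 7.30 and 9.55 TPM in CT0.4, against 0.133 and 0.205 TPM in IWP2, a log2 fold change of 3.00 ± 0.37 (SE, n = 2 each, adjusted p from limma 2.69e-05). AXIN2 had 53.3 and 60.8 TPM in CT0.4, against 9.39 and 8.38 TPM in IWP2 (log2 fold change 2.55 ± 0.19, adjusted p 1.61e-07). PAX3, a factor of dorsal neural tissue, had 25.7 and 25.6 TPM in CT0.4, against 3.75 and 1.96 TPM in IWP2 (log2 fold change 2.83 ± 0.28, adjusted p 3.14e-06). Both CT0.4 libraries lay above both IWP2 libraries for each of these 3 genes. Groups that do not overlap were found for 12083 of all genes tested, 62.5%, and for every gene that rose or fell.

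SIX3 had 0.807 and 1.66 TPM in CT0.4, against 157 and 156 TPM in IWP2, a log2 fold change of -6.17 ± 0.23 (adjusted p 4.28e-11). RAX had 0.694 and 0.263 TPM in CT0.4, against 165 and 159 TPM in IWP2, a log2 fold change of -6.80 ± 0.29 (adjusted p 1.63e-10). In these 2 genes the IWP2 libraries were nearly alike and the CT0.4 libraries were near the filter of 1 TPM.

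OTX2, which marks both forebrain and midbrain, was abundant under both labels, with 427 and 415 TPM in CT0.4, against 163 and 155 TPM in IWP2. Its log2 fold change was 1.40 ± 0.36 (adjusted p 0.0108). This call ended when CT0.4 replicate 1, IWP2 replicate 1 or IWP2 replicate 2 was left out, with adjusted p of 0.0754, 0.0504 and 0.0629. SOX1 had 4.88 and 7.01 TPM in CT0.4, against 0.907 and 0.990 TPM in IWP2, a log2 fold change of 1.82 ± 0.36 (adjusted p 0.00177). SOX1 was thus low under both labels at day 4, and its libraries did not overlap, as in 62.5% of all genes tested.

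**Figure D1:**
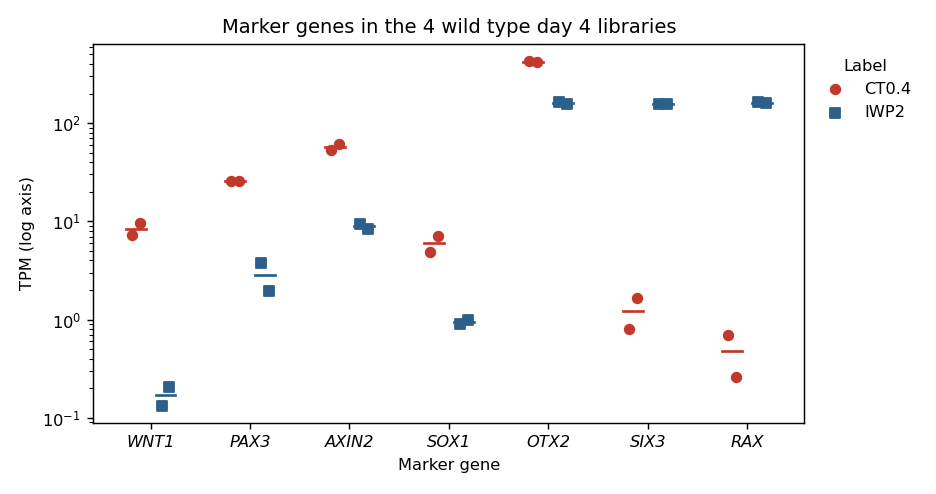
TPM on a log axis of the 7 marker genes in the 2 CT0.4 and 2 IWP2 libraries of wild type day 4 cultures; points are libraries and lines are group means. CT0.4 lies above IWP2 for WNT1, PAX3, AXIN2, SOX1 and OTX2, and below it for SIX3 and RAX, where IWP2 lies between 156 and 165 TPM.

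Across all genes tested, 766 rose and 1681 fell, 3.96% and 8.7% of them. On the deposited TPM alone, 4140 genes were called, 21.4% of those tested, with 766 higher (3.96%) and 3374 lower (17.5%); scaled by median ratios, 1948 genes were higher (10.1%) and 1681 lower (8.7%). The median log2 fold change of all genes was -0.21 on the deposited TPM and -0.01 after scaling. Of the genes that rose, 669 were protein-coding, as were 1353 of those that fell. A log2 fold change past 1 in either direction was reached by 245 that rose (1.27%) and 756 that fell (3.91%), and one past 3 by 26 and 38. The 4140 calls became 1682 without CT0.4 replicate 1, 2500 without IWP2 replicate 1 and 2444 without IWP2 replicate 2. Of the genes that rose 283, and of those that fell 484, were still called with each of the 4 libraries left out in turn; all 7 markers but OTX2 were among them, as were 81 of the 107 list members that rose or fell.

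The 4 WT day 4 libraries labelled CT0.4 or CT1.0 stood apart from the other 24 libraries of the series in the number of genes at 1 TPM or more, with 17694 to 18233 genes, against 18876 to 20338 in the others. The CT0.4 libraries held 17891 and 18233 such genes, against 19401 and 19250 in the IWP2 libraries. Every comparison given here uses the CT0.4 libraries, so none can be given without them, and the part of this gap in the results was not tested. Cytosolic ribosomal protein genes took 26.7% and 24.95% of the TPM in CT0.4 and 19.2% and 19.9% in IWP2, and 62 of the 78 tested were called higher and 0 lower on the deposited TPM. Replicates correlated at r = 0.965 in CT0.4 and 0.956 in IWP2 across genes, and libraries of different labels at 0.930 to 0.936. The part of the ribosomal share in the results was not tested, and depth is unknown because TPM keeps none.

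**Figure D2:**
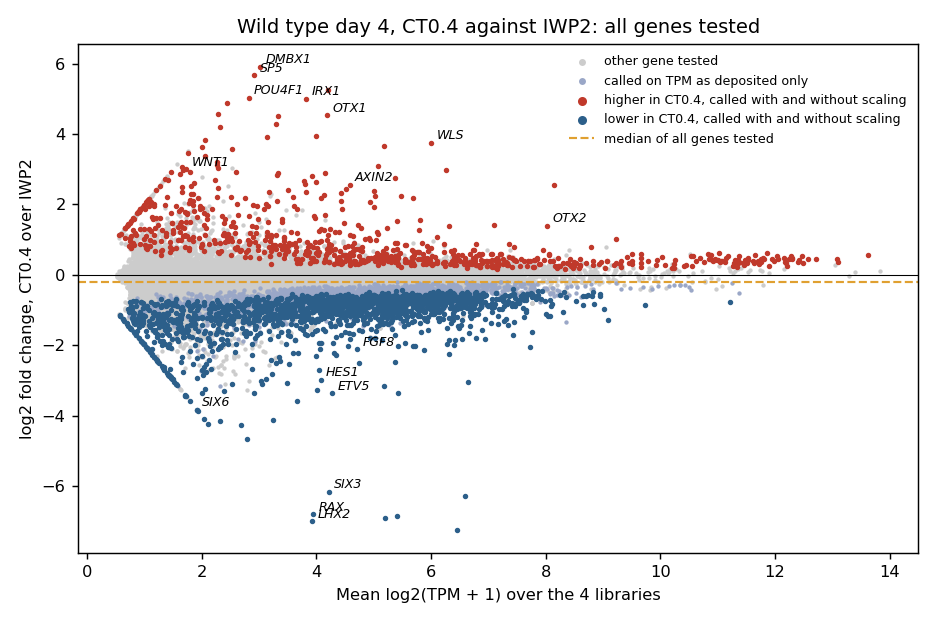
Log2 fold change of TPM + 1, CT0.4 over IWP2, against mean log2(TPM + 1) over the 4 wild type day 4 libraries, 1 point per gene tested. Red and blue points are the 766 genes that rose and the 1681 that fell, and the dashed line is the median of all genes at -0.21; the straight edges at the left hold genes near 0 in one of the groups, and most of the lowest points without a name are noncoding RNAs beside SIX3.

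The highest named genes were mostly regional transcription factors and WNT pathway genes. DMBX1, a homeobox gene of the mouse midbrain and diencephalon, had 55.5 and 68.7 TPM in CT0.4, against 0.0635 and 0.0332 TPM in IWP2, the highest log2 fold change among the genes named by rule at 5.90 ± 0.29 (adjusted p 6.77e-10). SP5 followed with 58.4 and 47.6 TPM in CT0.4, against 0.0715 and 0.0379 TPM in IWP2 (5.67 ± 0.54, adjusted p 2.42e-06). POU4F1, a POU factor known from sensory and midbrain neurons, had 36.6 and 42.1 TPM in CT0.4, against 0.159 and 0.312 TPM in IWP2. All 3 were under 1 TPM in both IWP2 libraries.

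IRX1, an Iroquois homeobox gene, had 71.8 and 86.4 TPM in CT0.4, against 1.02 and 2.07 TPM in IWP2. OTX1, the relative of OTX2, had 77.8 and 97.6 TPM in CT0.4, against 2.23 and 3.46 TPM in IWP2. OTX1 and OTX2 therefore both rose, and the log2 fold change was 4.54 for OTX1 and 1.40 for OTX2. FOXB1 and DBX1, a forkhead and a homeobox factor of the neural tube, had log2 fold changes of 4.52 and 3.96. RSPO2, a secreted enhancer of WNT signalling, and DKK1, a secreted inhibitor that binds LRP5 and LRP6, stood at 4.30 and 4.20.

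At the other end, LHX2, a LIM homeobox gene of the eye field and forebrain, had 0.0738 and 0.682 TPM in CT0.4, against 182 and 160 TPM in IWP2, a log2 fold change of -7.00 ± 0.33 (adjusted p 6.18e-10). SIX6, a relative of SIX3 in eye and hypothalamus, was listed at 0 in both CT0.4 libraries and had 11.8 and 14.8 TPM in IWP2. MAF, a leucine-zipper transcription factor, had 0.514 and 0.416 TPM in CT0.4, against 26.1 and 27.9 TPM in IWP2. LHX2, RAX and SIX3 thus shared 1 pattern, below 2 TPM in each CT0.4 library and from 156 to 182 TPM in the IWP2 libraries.

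The other members of the 10 lowest had log2 fold changes between -3.57 and -3.36. SEMA6D and ROBO2, a semaphorin and a SLIT receptor of axon guidance, stood at -3.57 and -3.36. ETV5, an ETS factor known as an FGF target, had 4.804 and 5.32 TPM in CT0.4, against 55.0 and 68.2 TPM in IWP2. ADM, the precursor of the peptide adrenomedullin, had 0.174 and 0.321 TPM in CT0.4, against 11.0 and 12.7 TPM in IWP2. GNG8, a G protein subunit, had 9.75 and 15.7 TPM in CT0.4, against 114 and 163 TPM in IWP2, and its call ended without CT0.4 replicate 1 (adjusted p 0.0885) or IWP2 replicate 2 (adjusted p 0.0669).

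Of the 15 tested members of the midbrain and caudal forebrain list, 10 rose and 1 fell, with a median log2 fold change of 2.08, beside -0.21 for all genes. Of all genes tested 3.96% rose and 8.7% fell. These shares stand beside the counts of list members that rose or fell, here and below. Besides DMBX1, IRX1 and OTX1, the genes that rose were LMX1A, LMX1B, EN1, BARHL1, IRX2, MAB21L2 and NR2F1. EN1, a homeobox gene of the midbrain and anterior hindbrain, had 5.32 and 8.19 TPM in CT0.4 and was listed at 0 in both IWP2 libraries. LMX1A, known in the roof plate and in midbrain dopamine progenitors, had 5.42 and 3.83 TPM in CT0.4, against 0.727 and 1.27 TPM in IWP2 (log2 fold change 1.49, adjusted p 0.00918). Its call ended without CT0.4 replicate 1 (adjusted p 0.105) or IWP2 replicate 1 (adjusted p 0.0814). NR2F1, a nuclear receptor, had 33.2 and 45.5 TPM in CT0.4, against 4.74 and 4.70 TPM in IWP2.

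The member that fell was TCF7L2, a TCF factor that also marks the caudal forebrain, with 23.8 and 26.7 TPM in CT0.4, against 103 and 108 TPM in IWP2 (log2 fold change -2.02, adjusted p 2.01e-06). NR2F2 and IRX3 were not called, at log2 fold changes of 0.54 and 0.39. EN2, PAX5 and BARHL2 did not pass the filter. EN2, a relative of EN1, was listed at 0.0413 and 0 TPM in CT0.4 and at 0 in both IWP2 libraries.

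The anterior forebrain and eye field list split by gene, with 4 of 12 tested members rising, 6 falling and a median of -1.46. SIX3, SIX6, RAX, LHX2, HESX1 and FEZF1 fell. HESX1, a homeobox repressor of the anterior neural plate, had 10.8 and 11.4 TPM in CT0.4, against 121 and 96.3 TPM in IWP2. FEZF1, a forebrain zinc-finger factor, remained abundant in CT0.4 with 95.7 and 111 TPM, against 444 and 420 TPM in IWP2.

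OTX2, SP8, FEZF2 and EMX2 rose although they stand in the same list. FEZF2, the relative of FEZF1, had 5.81 and 5.99 TPM in CT0.4, against 0.533 and 0.867 TPM in IWP2 (log2 fold change 2.03, adjusted p 0.000647). FEZF1 and FEZF2 therefore moved in opposite directions. EMX2, a homeobox gene of the dorsal forebrain, had 12.5 and 12.2 TPM in CT0.4, against 0.162 and 0.412 TPM in IWP2. PAX6, expressed in eye and forebrain and beyond, was not called, with 64.1 and 68.4 TPM in CT0.4, against 94.7 and 91.2 TPM in IWP2 (log2 fold change -0.48, adjusted p 0.346).

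Genes of the isthmus and of FGF feedback were mostly lower in CT0.4: of 13 tested, 9 fell and 2 rose, with a median of -1.79. The isthmus is the boundary of midbrain and hindbrain, and its ligand FGF8 had 12.1 and 11.0 TPM in CT0.4, against 49.97 and 56.9 TPM in IWP2 (log2 fold change -2.12 ± 0.33, adjusted p 0.000271). FGF8 is also made by the anterior neural ridge. The ERK phosphatase DUSP6, a standard readout of FGF signalling, had 3.10 and 5.56 TPM in CT0.4, against 50.6 and 46.9 TPM in IWP2 (-3.26, adjusted p 1.2e-05).

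ETV4, ETV5, SPRY1, SPRY2, SPRY4 and IL17RD, all known to be induced by FGF and many of them its inhibitors, fell with log2 fold changes between -3.36 and -1.57. GBX2, a homeobox gene of the anterior hindbrain, had 0.0856 and 0.0915 TPM in CT0.4, against 3.97 and 8.57 TPM in IWP2. The 2 genes that rose were FGF17 and PAX8, at log2 fold changes of 1.10 and 1.96; the call of PAX8 ended without CT0.4 replicate 2 (adjusted p 0.0678) or IWP2 replicate 1 (adjusted p 0.0618). PAX2 was not called, with 30.7 and 38.0 TPM in CT0.4, against 51.4 and 48.7 TPM in IWP2.

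Along the dorsal and ventral axis the calls were mixed. Of the dorsal and roof plate genes, PAX3 and MSX1 rose and ZIC1, ZIC2 and ZIC4 fell. MSX1, a homeobox target of BMP and WNT, had 5.76 and 6.79 TPM in CT0.4, against 0.156 and 1.38 TPM in IWP2. ZIC1 had 0.610 and 0.871 TPM in CT0.4, against 7.80 and 10.7 TPM in IWP2. The CT0.4 libraries were thus the higher ones for MSX1 and the lower ones for ZIC1.

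Of 4 tested ventral genes, NKX6-1 rose, with 6.32 and 10.2 TPM in CT0.4, against 0.111 and 0.0565 TPM in IWP2. PTCH1 and GLI1, the receptor and a transcription factor of Hedgehog signalling and both its known targets, fell, at log2 fold changes of -1.79 and -1.95. SHH itself did not pass the filter.

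**Figure D3:**
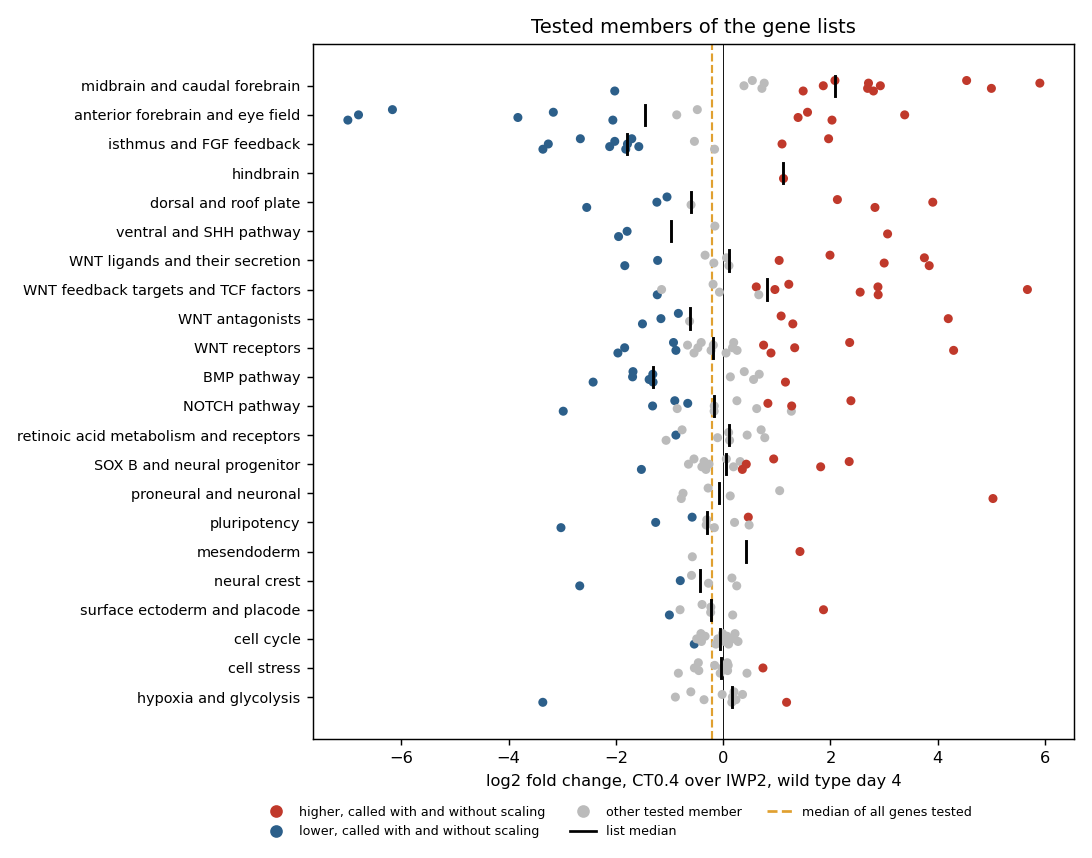
Log2 fold change of TPM + 1, CT0.4 over IWP2 at day 4, for each tested member of 22 gene lists; each point is a gene, the bar is the list median and the dashed line the median of all genes. The midbrain and caudal forebrain list has its median at 2.08, and the isthmus and FGF feedback list at -1.79.

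WNT ligands and the ligand carrier were among the genes that rose: of 11 tested genes of ligands and secretion, 5 rose and 2 fell. WLS, the carrier, had 240 and 229 TPM in CT0.4, against 21.7 and 12.5 TPM in IWP2, a log2 fold change of 3.75 ± 0.30 (adjusted p 2.38e-07). PORCN, the enzyme that IWP2 inhibits, was not called, with 9.03 and 10.4 TPM in CT0.4, against 12.4 and 12.6 TPM in IWP2 (log2 fold change -0.34 ± 0.21, adjusted p 0.279). WNT4 had 12.6 and 17.1 TPM in CT0.4, against 0.0855 and 0.104 TPM in IWP2 (log2 fold change 3.84).

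WNT10B rose with WNT1 and WNT4, and WNT5A and WNT8B fell. WNT7B also rose, with 1.15 and 1.41 TPM in CT0.4, against 0.0392 and 0.174 TPM in IWP2 (log2 fold change 1.04, adjusted p 0.0207), but its call ended without any 1 of the 4 libraries, with adjusted p of 0.0622 to 0.113. WNT5A, a ligand known for signalling without beta-catenin, had 1.45 and 1.92 TPM in CT0.4, against 10.5 and 6.92 TPM in IWP2. WNT8B, a ligand of the developing forebrain, had 0.527 and 0.590 TPM in CT0.4, against 2.58 and 2.69 TPM in IWP2. WNT5B was not called and was the most abundant tested ligand in both groups, at 28.7 and 34.0 TPM in CT0.4, against 34.7 and 36.1 TPM in IWP2.

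Of 12 tested feedback targets and TCF factors 7 rose and 1 fell, with a median of 0.81. Beside AXIN2 and SP5, the genes that rose were APCDD1 and ZNRF3, inhibitors of WNT at the cell surface, TNFRSF19, LEF1 and CCND1. APCDD1 had 22.1 and 31.3 TPM in CT0.4, against 2.10 and 3.38 TPM in IWP2, and LEF1, the DNA-binding partner of beta-catenin, 31.6 and 27.9 TPM in CT0.4, against 11.2 and 13.2 TPM in IWP2. LGR5, the R-spondin receptor and a known target in gut stem cells, fell, with 0.910 and 3.09 TPM in CT0.4, against 6.85 and 4.46 TPM in IWP2. LGR5 was the only member that fell, and the CT0.4 libraries differed widely in it. Its call ended without CT0.4 replicate 1 or IWP2 replicate 1. The call of CCND1 ended without CT0.4 replicate 2 or either IWP2 replicate (adjusted p 0.0574 to 0.213). TCF7, TCF7L1 and NKD1 were not called. NKD2 was called lower on the deposited TPM (log2 fold change -1.15, adjusted p from limma 0.0315) and not after scaling (adjusted p 0.0697).

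Secreted antagonists split evenly, with 3 of 7 tested rising and 3 falling. DKK1 had 19.9 and 20.7 TPM in CT0.4, against 0.352 and 0.00 TPM in IWP2. WIF1, which binds WNT ligands, and SHISA2, of a family known in Xenopus to hold Frizzled and FGF receptors inside the cell, also rose, at log2 fold changes of 1.298 and 1.08. The SFRP family, soluble relatives of Frizzled, went the other way: SFRP1 had 340 and 343 TPM in CT0.4, against 632 and 589 TPM in IWP2, and SFRP2 and FRZB had log2 fold changes of -1.16 and -1.51.

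Among 19 tested receptors and R-spondins 5 rose, FZD7, FZD9, FZD10, ROR1 and RSPO2, and 4 fell, FZD2, FZD5, FZD8 and LRP5. FZD10 had 5.39 and 6.94 TPM in CT0.4, against 0.420 and 0.359 TPM in IWP2. FZD5, the Frizzled of the eye field, had 34.7 and 42.1 TPM in CT0.4, against 154 and 150 TPM in IWP2 (log2 fold change -1.96, adjusted p 1.37e-05), and FZD8, its closest relative, 5.37 and 5.76 TPM in CT0.4, against 21.7 and 23.3 TPM in IWP2. LRP6 was not called, with 37.5 and 32.2 TPM in CT0.4, against 38.4 and 29.1 TPM in IWP2.

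The BMP list had 1 of 11 tested genes rising and 6 falling, with a median of -1.31. The ligands BMP4 and BMP7, the targets ID1, ID3 and ID4 and the antagonist GREM1 fell; ID1 had 1.93 and 1.40 TPM in CT0.4, against 7.40 and 7.62 TPM in IWP2. The call of BMP4 ended without any 1 of the 4 libraries, with adjusted p of 0.0556 to 0.171. FST, an antagonist of activin and BMP, rose to 49.0 and 50.3 TPM in CT0.4, against 23.5 and 20.0 TPM in IWP2. ID2, the most abundant ID gene, was called only after scaling, with 418 and 379 TPM in CT0.4, against 263 and 273 TPM in IWP2.

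In the NOTCH list 3 of 13 tested genes rose and 4 fell, beside 3.96% and 8.7% of all genes tested. HES1, a repressor induced by NOTCH, had 3.88 and 6.34 TPM in CT0.4, against 44.7 and 47.98 TPM in IWP2 (log2 fold change -2.98 ± 0.29, adjusted p 3.14e-06), and the receptors NOTCH1, NOTCH2 and NOTCH3 also fell. The ligand JAG1 rose, with 65.2 and 80.9 TPM in CT0.4, against 17.3 and 9.91 TPM in IWP2, as did LFNG and HEY2. Of 9 tested genes of retinoic acid metabolism and receptors, 0 rose and 1 fell: CRABP2, which carries retinoic acid in the cell, had 192 and 210 TPM in CT0.4, against 374 and 370 TPM in IWP2.

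In the list of SOX B and general neural progenitor genes 5 of 15 tested rose and 1 fell: SOX1, POU3F2, ZBTB16, NCAM1 and LIN28B rose and SOX3 fell, and the list median was 0.06. SOX2, the most abundant SOX B gene, had 324 and 332 TPM in CT0.4, against 428 and 412 TPM in IWP2 (log2 fold change -0.36), a difference called on the deposited TPM and not after scaling, where the adjusted p was 0.52. SOX3 had 6.62 and 7.18 TPM in CT0.4, against 19.3 and 24.5 TPM in IWP2. SOX1 and SOX3, both of the SOX B group, thus moved in opposite directions. NES, an intermediate filament of progenitors, had 223 and 259 TPM in CT0.4, against 291 and 311 TPM in IWP2 and was not called.

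Lists of other cell types that the cultures could hold were counted in the same way, beside 3.96% rising and 8.7% falling among all genes tested. Of 6 tested proneural and neuronal genes 1 rose, POU4F1, and TUBB3, a neuronal tubulin, was not called at 85.8 and 123 TPM in CT0.4, against 127 and 123 TPM in IWP2. Of 9 tested pluripotency genes LIN28A rose and L1TD1, DNMT3B and DPPA4 fell; POU5F1 was not called at 46.5 and 34.1 TPM in CT0.4, against 29.6 and 39.7 TPM in IWP2, while it had 2514 and 2399 TPM in undifferentiated cells. NANOG was at 0.165 and 0.135 TPM in CT0.4, against 0.147 and 0.120 TPM in IWP2. GSC rose among 2 tested mesendoderm genes, at 2.90 and 2.83 TPM in CT0.4, against 0.727 and 0.188 TPM in IWP2, and TBXT did not pass the filter; the call of GSC ended without IWP2 replicate 2 (adjusted p 0.0531).

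Of 6 tested neural crest genes 0 rose, and CDH6 and SOX9 fell; the defining gene SOX10 was at 0.180 and 0.107 TPM in CT0.4 and at 0 and 0.141 TPM in IWP2. The summed TPM of the whole crest list was 35.1 and 41.3 in CT0.4 and 55.9 and 60.2 in IWP2, and of the surface ectoderm and placode list 126 and 129 in CT0.4 and 145 and 139 in IWP2. In the surface ectoderm list TFAP2C rose and EYA1 fell among 7 tested, and the call of EYA1 ended without CT0.4 replicate 1 or 2 or IWP2 replicate 1 (adjusted p 0.0504, 0.0542 and 0.08). The cell cycle list had 1 of 14 genes falling, PLK1, whose call ended without CT0.4 replicate 1 (adjusted p 0.0582), and 0 rising, with 5 higher and 1 lower after scaling alone. Among stress genes GADD45A rose, 1 of 12, and among hypoxia and glycolysis genes EGLN3 rose and ADM fell, of 11. With 3.96% rising and 8.7% falling among all genes tested, such small counts are not a result about these lists.

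Of the 26 list members whose calls ended with 1 library left out, 19 ended on the deposited TPM and 7 only after scaling. Beside those given above, the calls of SHISA2, LRP5, ROR1, FGF17, ZIC4, HEY2, ID3, NCAM1 and LIN28B ended on the deposited TPM, with the highest adjusted p between 0.0504 for ROR1 and 0.191 for LIN28B. The calls of SFRP2, SPRY4, ZIC2, GLI1, NOTCH3, CRABP2 and SOX9 ended only after scaling, with the highest adjusted p between 0.0514 for SFRP2 and 0.164 for NOTCH3.

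WT cultures labelled CT1.0 were set against CT0.4 at day 4; this comparison shares the CT0.4 libraries with the one above. Of all genes tested 543 rose and 915 fell in CT1.0, 2.81% and 4.74%. Genes were tested by their level in CT0.4 and IWP2. A gene present only in CT1.0, such as HOXA2 below, could therefore not be counted as rising. The median log2 fold change of all genes tested was -0.11 on the deposited TPM and -0.03 after scaling. OTX2 fell to 11.8 and 4.55 TPM in CT1.0, against 427 and 415 TPM in CT0.4 (log2 fold change, CT1.0 over CT0.4, -5.64 ± 0.36, adjusted p 7.87e-08). DMBX1 had 1.5 and 0.945 TPM in CT1.0, against 55.5 and 68.7 TPM in CT0.4, and SP5 1.39 and 0.610 TPM in CT1.0, against 58.4 and 47.6 TPM in CT0.4. DKK1 was listed at 0 in both CT1.0 libraries.

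AXIN2 and PAX3 also fell in CT1.0. AXIN2 had 22.6 and 24.5 TPM in CT1.0, against 53.3 and 60.8 TPM in CT0.4 (-1.24 ± 0.19, adjusted p 0.000458). SOX1 rose to 84.1 and 98.0 TPM in CT1.0, against 4.88 and 7.01 TPM in CT0.4 (3.74 ± 0.36, adjusted p 4e-06), and GBX2 to 11.9 and 9.37 TPM in CT1.0, against 0.0856 and 0.0915 TPM in CT0.4. WNT1, SIX3 and RAX were not called, at log2 fold changes of -0.69, -0.59 and -0.44. SIX3 and RAX were thus low under both CT labels, while DMBX1, SP5 and OTX2 were high in CT0.4 and low in CT1.0. Left-out libraries changed this comparison: the 1956 genes called on the deposited TPM (10.1%) became 1137 and 925 without CT1.0 replicate 1 or 2, and 1007 and 978 without CT0.4 replicate 1 or 2. HOXA2, a hindbrain gene, had 18.5 and 24.8 TPM in CT1.0, was listed at 0 in both CT0.4 libraries and had 0.179 and 0.0800 TPM in IWP2.

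The difference between CT0.4 and IWP2 was larger at day 8 than at day 4 for WNT1, WLS and AXIN2, its change was called downward for DKK1 and WNT7B, and it was not called for SP5 and LEF1. The change of the difference, day 8 minus day 4, had a median over all genes tested of 0.17 on the deposited TPM and -0.01 after scaling. The part of this shift in the counts was not tested. Genes present only at day 8 were not among those tested. The change was called upward for 1557 genes and downward for 847, 8.06% and 4.38% of all genes tested. On the deposited TPM alone 3293 were called (17%), and 2044 without day 4 CT0.4 replicate 1. WNT1 had 547 and 420 TPM in CT0.4, against 0.0691 and 0.140 TPM in IWP2 at day 8; the difference grew by 5.77 ± 0.52 on the log2 scale (adjusted p 1.44e-06). WLS had 1535 and 1149 TPM in CT0.4, against 6.31 and 2.26 TPM in IWP2 at day 8. AXIN2, at 350 and 240 TPM in CT0.4, against 9.64 and 11.5 TPM in IWP2 at day 8, grew by 2.10 (adjusted p 5.87e-05), and PAX3 by 3.02 (adjusted p 5.88e-05). The change was -3.46 for DKK1 (adjusted p 0.000292) and -2.87 for WNT7B (adjusted p 0.000207), and -1.15 for SP5 and -0.30 for LEF1 (adjusted p 0.35 and 0.613).

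Not every marker behaved this way. RAX had 0.135 and 0.0266 TPM in CT0.4, against 40.9 and 46.9 TPM in IWP2 at day 8, so its difference became smaller, by 1.42 (adjusted p 0.0223), a call that ended with a pseudocount of 0.1 (0.25, adjusted p 0.921). It also ended without any 1 of 5 libraries: both IWP2 replicates of day 4, CT0.4 replicate 2 of day 4, and replicate 1 of CT0.4 or IWP2 of day 8, with adjusted p of 0.057 to 0.0846. SIX3, OTX2 and SOX1 had day differences of -0.03, -0.60 and -1.47 that were not called. SOX1 reached 11.3 and 15.7 TPM in CT0.4, against 10.6 and 9.90 TPM in IWP2 at day 8.

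Among the genes named by rule, those outside the markers that grew most were FGFR2, an FGF receptor, ID1, LMX1A and CDH6, a cadherin. They stood at 7.07, 6.03, 6.02 and 5.70. FGFR2 was called at day 4 only after scaling, with 59.1 and 70.7 TPM in CT0.4, against 54.9 and 47.95 TPM in IWP2, and had 462 and 394 TPM in CT0.4, against 1.44 and 1.63 TPM in IWP2 at day 8. ID1 was lower in CT0.4 at day 4 and had 177 and 140 TPM in CT0.4, against 7.79 and 5.93 TPM in IWP2 at day 8. CDH6 likewise turned round, with 130 and 99.7 TPM in CT0.4, against 13.0 and 13.1 TPM in IWP2 at day 8. In the BMP list 9 of 11 tested genes were called upward, ID3, ID4, BMP4 and BMP7 among them, and 0 downward. Of all genes tested 8.06% were called upward and 4.38% downward. In the dorsal list 6 of 7 tested genes were called upward and 0 downward. ZIC1 reached 334 and 221 TPM in CT0.4, against 49.3 and 39.0 TPM in IWP2.

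The day difference was lowest, among the genes named here, for DLK1, a membrane protein related to NOTCH ligands, at -6.05, followed by MPPED1, PAX8 and FZD5 at -5.94, -4.93 and -4.78. FZD5 had 1.76 and 2.53 TPM in CT0.4, against 328 and 341 TPM in IWP2 at day 8. In the isthmus and FGF feedback list 8 of 13 tested genes were called downward and 0 upward, beside 4.38% and 8.06% of all genes tested. FGF8 had 1.02 and 2.02 TPM in CT0.4, against 143 and 177 TPM in IWP2.

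**Figure D4:**
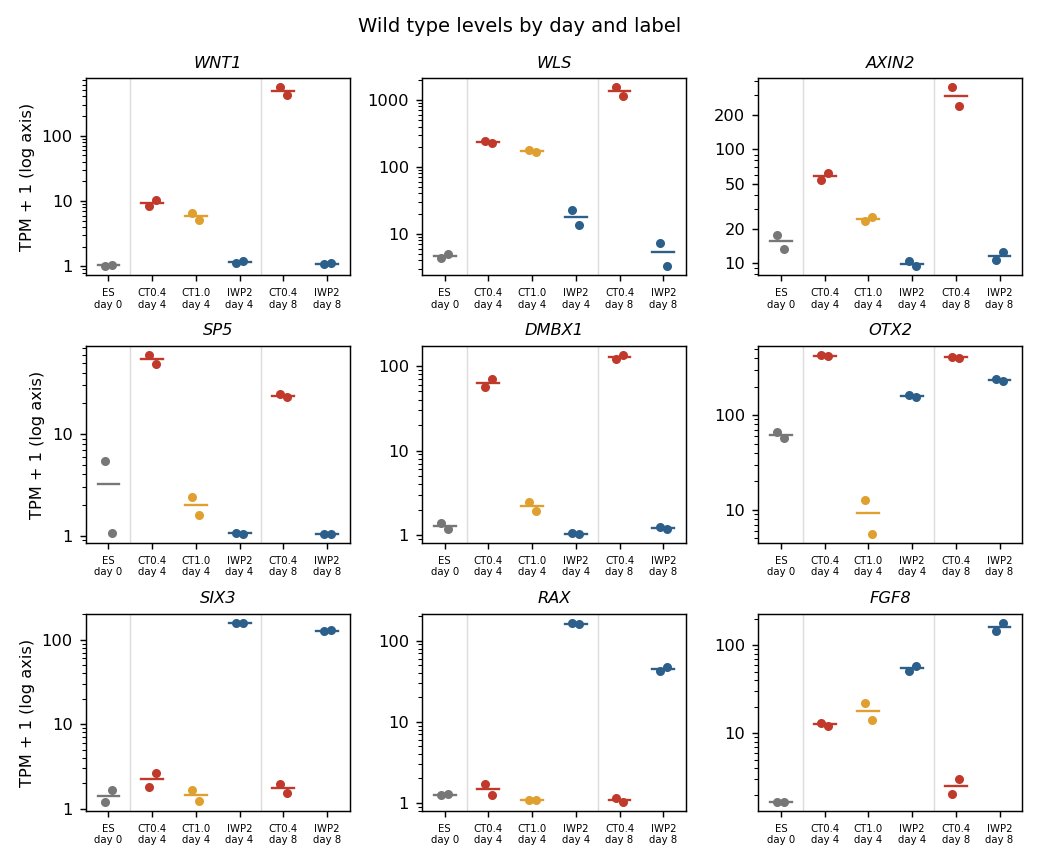
TPM + 1 on log axes of 9 genes in wild type cells, undifferentiated (day 0), at day 4 under CT0.4, CT1.0 and IWP2, and at day 8 under CT0.4 and IWP2; points are libraries, 2 per group, and lines group means. WNT1, WLS and AXIN2 are higher in CT0.4 at day 8 than at day 4, SP5, DMBX1 and OTX2 are high in CT0.4 and low in CT1.0 at day 4, and SIX3 and RAX are high in IWP2 alone.

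The same labels were compared in SOX1-/- cultures, to ask whether the difference between CT0.4 and IWP2 depends on SOX1. The targeted gene, SOX1, still had 0.866 and 1.49 TPM in KO CT0.4, against 0.410 and 1.14 TPM in KO IWP2; where these reads lie in the gene cannot be seen in gene-level values. The difference of differences, KO minus WT, had a median over all genes tested of 0.17 on the deposited TPM and -0.0007 after scaling. The part of this shift in the counts was not tested. Genes present only in KO cultures were not among those tested. The difference of differences was called upward for 219 genes and downward for 38, 1.13% and 0.197% of all genes tested. None of the 7 markers was called: it was 1.18 ± 0.52 for WNT1 (adjusted p 0.249), 0.46 ± 0.27 for AXIN2, 0.27 ± 0.51 for OTX2, -0.53 ± 0.33 for SIX3 and -1.51 ± 0.52 for SOX1 (adjusted p 0.127). WNT1 had 32.0 and 17.1 TPM in KO CT0.4, against 0.111 and 0.636 TPM in KO IWP2. SIX3 had 0.347 and 0.450 TPM in KO CT0.4, against 148 and 139 TPM in KO IWP2. In the 6 regional lists and the 4 WNT lists, of 1 to 19 tested members each, 0 genes were called both ways in either direction. At 1.13% and 0.197% of all genes, lists of this size would hold few calls or none, so this is not a result about them. In the NOTCH list 1 of 13 tested genes was called upward, in the BMP list 1 of 11, and in both 0 downward. With these errors, a marker that was not called is not shown to act alike in the 2 genotypes.

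The highest genotype difference among the genes named by rule was that of DDIT4. DDIT4, an inhibitor of mTOR induced by stress and hypoxia, had 501 and 465 TPM in KO CT0.4, 128 and 34.997 TPM in KO IWP2, 42.4 and 30.6 TPM in WT CT0.4, against 51.4 and 48.7 TPM in WT IWP2, a difference of 3.29 ± 0.61 (adjusted p 0.0103). SLC16A3, a lactate transporter, ARRDC2, an arrestin-domain protein, and AK4, a mitochondrial adenylate kinase, had differences of 3.03, 2.89 and 2.41. ADM, which fell in WT CT0.4, had 3.26 and 8.85 TPM in KO CT0.4, against 8.50 and 10.9 TPM in KO IWP2 (2.65, adjusted p 0.0306). Of 11 hypoxia and glycolysis genes BNIP3, VEGFA, ADM and PDK1 were called upward and 0 downward. Of 12 stress genes DDIT4 was called upward and 0 downward. Of all genes tested 1.13% were called upward and 0.197% downward. DDIT4 was already named for its high difference, so the stress count is not a result about that list.

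KIT, a receptor kinase, had 5.98 and 6.73 TPM in KO CT0.4, 5.55 and 4.36 TPM in KO IWP2, 11.9 and 10.9 TPM in WT CT0.4, against 3.22 and 4.39 TPM in WT IWP2, a difference of -1.06 ± 0.22 (adjusted p 0.0168). COMMD3-BMI1, at -2.16, is a read-through of 2 neighbouring genes, and its reads cannot be told from theirs. These 7 genotype calls ended in a fit of only the 8 libraries compared, with adjusted p between 0.113 and 0.19, where 2 genes in all were called. The 533 genes called on the deposited TPM (2.76%) became 202, 323 and 122 without KO IWP2 line 26, KO IWP2 line 48 or KO CT0.4 line 26, and 93, 217 and 162 without WT CT0.4 replicate 1, WT IWP2 replicate 1 or WT IWP2 replicate 2. Of the named genes, DDIT4, ARRDC2 and AK4 were still called without each of the 8 libraries in turn; the calls of ADM, SLC16A3, KIT and COMMD3-BMI1 ended in 4 to 6 of these 8 fits. In KO CT0.4 the ribosomal share was 24.6% and 22.9%, and 19584 and 19694 genes reached 1 TPM.

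**Figure D5:**
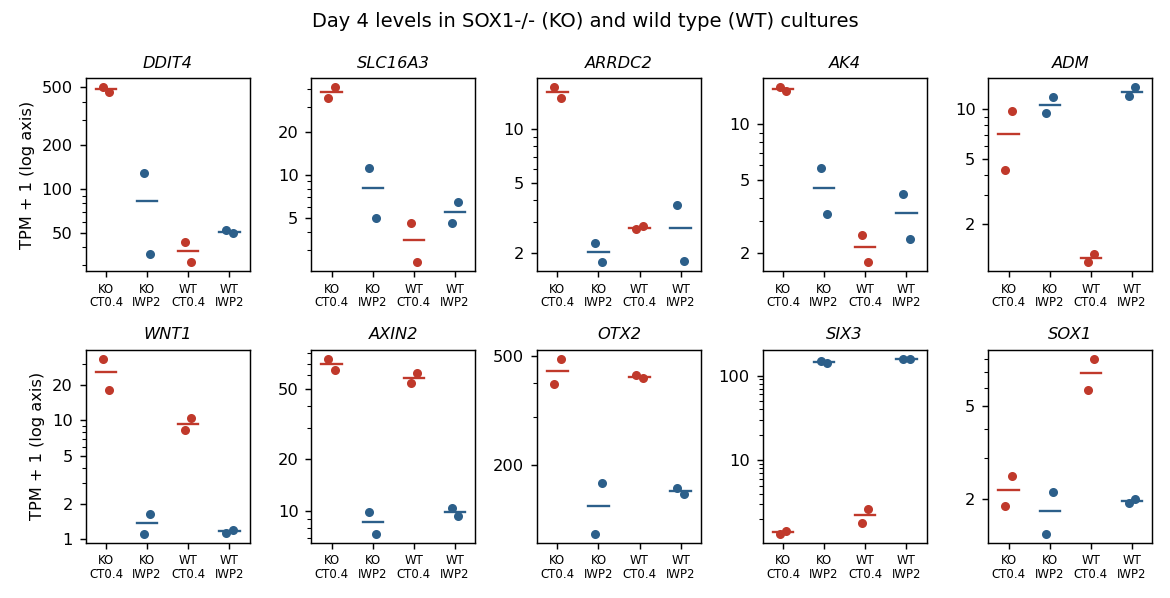
TPM + 1 on log axes at day 4 in SOX1-/- (KO) and wild type (WT) cultures under CT0.4 and IWP2. The top row holds the 5 genes with the highest genotype difference among those named by rule, and the bottom row 5 markers. Points are libraries, 2 per group, and lines are group means. DDIT4, SLC16A3, ARRDC2 and AK4 are highest in both KO CT0.4 libraries, and SIX3 is near 0 in CT0.4 of either genotype.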

How the data were processed

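Poly(A)-selected RNA of H9 cells was sequenced in 28 libraries of 14 groups, per the labels. The authors deposited gene-level TPM for 58219 genes. Salmon 0.8.2, CASAVA 1.7 and the build hg38 stand in the submitters' processing notes, without their roles and with no annotation release. TPM keeps no depth, so no counting interval is given. The labels name HiSeq2000 and X-ten runs without saying which library had which, so no batch was fitted. Columns were matched to samples by name, with 0 left unmatched.

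Genes with at least 1 TPM in 2 of the 4 libraries were modelled on log2(TPM + 1) in limma 3.58.1 (R 4.3.3), with 1 mean per group over all 28 libraries, an intensity trend, 14 residual and 3.1 prior degrees of freedom, and Benjamini-Hochberg adjustment over 19323 genes in each of 4 comparisons. An exact permutation test of 2 against 2 cannot go below p = 0.333 and was not used. The fit of CT0.4 against IWP2 was also run on simulated data of 19323 genes. It called 81% of genes changed by 1 and 97% of genes changed by 2 on the log2 scale. Of its calls 3.78% were false. Only genes of higher mean level were changed, 100 of each size. The simulated noise was normal and independent between genes, without a shift between libraries. These rates therefore do not carry over to low genes or to the real calls.

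Genes were named by a rule: the 7 markers, the 10 highest and 10 lowest that rose or fell by at least 1 with groups that do not overlap, a mean of at least 10 TPM in the higher group and no noncoding, ribosomal or repeated name, up to 4 called and 2 uncalled members of each of 22 lists (327 genes), and the 5 highest and 5 lowest of the day and genotype differences. Further list members given in the text, WNT8B, LGR5, SHISA2, LIN28A and EN2 among them, were named after their values were seen, and a few genes chosen by the rule are left out. The members, markers and lists were chosen with earlier results of these data known. Coordinates and types come from GENCODE 29, in which 57881 gene IDs matched without their version. Alternatives were another pseudocount, no filter, scaling, a fit of only the libraries compared, a replicate block, a fold minimum and each library left out.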

Additional observations from a re-analysis of the deposited data

Results flagged for a closer look

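The difference between CT0.4 and IWP2 in wild type cultures was tested against the same difference at day 8, and 3293 genes were called on the deposited TPM. Values are day 8 minus day 4, on the log2(TPM + 1) scale. Among the markers the difference grew for WNT1 by 5.77, for PAX3 by 3.02 and for AXIN2 by 2.10, and for RAX, which was lower in CT0.4 at both days, it changed by 1.42. FGFR2 stood at 7.07, ID1 at 6.03, LMX1A at 6.02 and CDH6 at 5.70. DLK1 stood at -6.05, MPPED1 at -5.94, PAX8 at -4.93 and FZD5 at -4.78.

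The difference was also tested between SOX1-/- and wild type cultures at day 4, and 533 genes were called on the deposited TPM. Values are KO minus WT. DDIT4 stood at 3.29, SLC16A3 at 3.03, ARRDC2 at 2.89, ADM at 2.65 and AK4 at 2.41. KIT stood at -1.06 and COMMD3-BMI1 at -2.16. In each case the test of the difference between groups brought the gene here.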

How the results depend on the processing

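Scaling moved the first comparison to 1948 higher and 1681 lower calls. A fit of only the libraries compared called 1759 genes (402 higher, 1357 lower), 2 for the genotype difference and 520 for CT1.0 against CT0.4. No filter gave 323 for the genotype difference. A log2 fold change of at least 1 left 1135 (245 higher, 890 lower), 1627 for the day difference, 243 for the genotype difference and 589 for CT1.0 against CT0.4. Leaving out libraries gave 1682 to 3355 calls (353 to 534 higher, 1329 to 2821 lower), 2044 to 2950 for the day difference, 93 to 687 for the genotype difference and 925 to 1137 for CT1.0 against CT0.4; the cause was not tested. Chosen after seeing the data, library quality weights gave 4609 calls and a fit without the WT day 4 CT1.0 libraries 4029.

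Same-numbered WT libraries shared only a number: their deviations correlated at -0.068 to 0.070, with 0 of 21 pairs over 0.1. With the replicate block 4304 genes were called (824 higher, 3480 lower), 3431 for the day difference, 504 for the genotype difference and 2039 for CT1.0 against CT0.4; with block and scaling 1993 were higher and 1712 lower.

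Reversals were of uncalled values. With scaling, with or without the block, SPRED1 became 0.065, WNT5B 0.056, TCF7L1 0.037, HES6 0.055, MCM3 0.10, HSPA5 0.18 and MPPED1 0.015. With 1 library left out in turn, FOXA1 ranged from -0.39 to 0.075, TCF7L1 from -0.40 to 0.023, HES6 from -0.44 to 0.097, POU5F1 from -0.0075 to 0.43, MPPED1 from -0.47 to 0.14, ARRDC2 from -0.42 to 0.62, PCNA from -0.023 to 0.070 and ATF4 from -0.029 to 0.19. OTX2 in the genotype difference ranged from -0.036 to 0.58 and SIX3 in the day difference from -0.31 to 0.25. The calls of MSX1, WIF1, GSC, SOX9, EYA1, BMP4, PLK1, GADD45A and LMX1A ended in the fit of only the libraries compared, and that of DLK1 with scaling. TPM gives no depth, so low values have no counting limit.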

Other observations

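The lowest points of the comparison without a rule-given name were noncoding genes beside SIX3, named here after their values were seen. SIX3 lies on the plus strand of chromosome 2 at 44941898 to 44946077 (GRCh38, GENCODE 29), and SIX3-AS1 at 44940154 to 44941873 and LINC01833 at 44921077 to 44939199 lie next to it on the minus strand. LINC01833 had 1.33 and 5.62 TPM in CT0.4, against 466 and 441 TPM in IWP2, a log2 fold change of -6.85 (adjusted p from limma 1.07e-07). SIX3-AS1 had 0.367 and 0.380 TPM in CT0.4, against 30.7 and 36.5 TPM in IWP2, a log2 fold change of -4.65 (adjusted p 7.43e-09). The short annotated RNAs Six3os1_1, Six3os1_2, Six3os1_4 and Six3os1_5, on the plus strand inside the span of LINC01833, had log2 fold changes of -6.28, -7.24, -4.13 and -6.92. All 4 short features lie within a longer gene on the other strand and strand-specific counting is not stated, so their reads and those of LINC01833 cannot be told apart.

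Some other genes with high values in the comparison were also named after their values were seen, by hand and without a rule, so they stand for no common kind. TENM4, a teneurin of neural adhesion, had 202 and 226 TPM in CT0.4, against 28.8 and 24.0 TPM in IWP2 (log2 fold change 2.98). CNTN2, a contactin, had 120.0 and 138 TPM in CT0.4, against 10.3 and 8.25 TPM in IWP2 (3.67). SULF1, an enzyme that trims heparan sulfate outside the cell, had 99.1 and 95.3 TPM in CT0.4, against 9.12 and 12.3 TPM in IWP2 (3.08). ADCYAP1R1, a neuropeptide receptor, had 12.3 and 14.965 TPM in CT0.4, against 0.581 and 0.581 TPM in IWP2 (3.21). PPP1R17, a regulator of protein phosphatases inside the cell, had 20.7 and 17.5 TPM in CT0.4, against 0.813 and 0.536 TPM in IWP2 (3.59). TMEM132C, a membrane protein, had 11.7 and 14.5 TPM in CT0.4, against 0.0642 and 0.220 TPM in IWP2 (3.62). ENPP2, a secreted enzyme that makes lysophosphatidic acid, had 11.6 and 14.9 TPM in CT0.4, against 0.776 and 0.505 TPM in IWP2 (3.11). All 7 were called with and without scaling.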
